A study of Mus musculus with 44 samples.

Results

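The genes described here are 10 genes of the circadian clock, measured by RNA sequencing in back skin of 44 mice. They were chosen by name: Arntl (newer symbol Bmal1), Clock, Npas2, Per1, Per2, Per3, Cry1, Nr1d1, Dbp and Tef were matched from Ensembl gene IDs to symbols, each to 1 ID among the 43411 genes of the table. All 10 passed the filter on low values and were among the 17037 genes tested. The rule did not use their values, but the list was chosen with earlier results of these data known.

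All mice were wild-type C57Bl/6 females, 8 weeks old when injections began. Bleomycin, a DNA-damaging antibiotic used to induce skin fibrosis, was injected every day under the back skin as 100 µL of a 1 U/mL solution, the strength the labels give; a supplementary legend of the study prints a lower one. The groups were saline (n = 10), 2 weeks of bleomycin (n = 10) and 4 weeks of bleomycin (n = 10), and 2 recovery groups that received 4 weeks of bleomycin and were then left untreated for 6 weeks (n = 6) or 10 weeks (n = 8). The labels and methods do not state at which endpoint the saline mice were killed, so age and time since the start of injections cannot be told apart from treatment in the comparisons with saline. The hour of day at which each mouse was killed is likewise not given, so hour of harvest and group cannot be told apart in any comparison below. The bleomycin and recovery groups were harvested at different times after injections began, so age and stage cannot be told apart in comparisons between them.

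The circadian clock is a transcriptional feedback loop that runs in nearly every cell. The activators BMAL1 (from Arntl) and CLOCK, or its relative NPAS2, switch on the Per and Cry genes, whose proteins return to repress the activators, and they also switch on Nr1d1, whose product REV-ERB alpha represses Arntl. Dbp and Tef encode PAR bZIP transcription factors, outputs of the loop that bind D-box elements. Arntl mRNA is known to peak in peripheral tissues roughly opposite to Dbp, Nr1d1 and the Per genes over the day, and in skin the clock is known to run in keratinocytes, fibroblasts and hair follicles.

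Elements through which the loop is known to be wired were looked for as letter matches in the DNA just upstream of these genes. No window of Clock, Npas2, Nr1d1 or Dbp held a match, and Per2 had no window. For Nr1d1, unlike the other genes, the 20 bases after the window were not found in a transcript of the gene. The 6 windows shown each hold at least 1 match. Each is the 250 bases before a transcript start, 5′ to 3′ on the gene's strand, from RefSeq (GRCm38.p6), with matches in capitals; 9 of the 10 genes had a window. The motifs were searched on both strands: the E-box CACGTG bound by BMAL1 and CLOCK, the D-box TTANGTAA, and the core TNGGTCA of the element shared by the ROR activators and REV-ERB repressors. The Arntl window (chr7:113207215-113207464, plus strand) holds 2 ROR cores, the Per1 window (chr11:69098699-69098948, plus strand) and the Cry1 window (chr10:85185055-85185304, minus strand) an E-box each. Another Per1 window held no match, and another, overlapping Arntl window held the same 2 ROR cores. The Per3 window (chr4:151044666-151044915, minus strand) holds 2 D-boxes and 1 ROR core, the first Tef window (chr15:81802423-81802672, plus strand) an E-box, and the second (chr15:81811164-81811413, plus strand) an E-box and a ROR core.
Arntl: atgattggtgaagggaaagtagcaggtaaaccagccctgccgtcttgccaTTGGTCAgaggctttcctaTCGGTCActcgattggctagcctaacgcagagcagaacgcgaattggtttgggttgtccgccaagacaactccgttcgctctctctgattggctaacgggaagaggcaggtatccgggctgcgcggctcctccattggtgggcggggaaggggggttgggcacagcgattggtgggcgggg
Per1: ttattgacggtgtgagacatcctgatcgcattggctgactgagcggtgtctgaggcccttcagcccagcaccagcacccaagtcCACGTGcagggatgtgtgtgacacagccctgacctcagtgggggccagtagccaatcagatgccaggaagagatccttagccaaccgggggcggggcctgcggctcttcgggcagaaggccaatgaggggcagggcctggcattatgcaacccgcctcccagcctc
Per3: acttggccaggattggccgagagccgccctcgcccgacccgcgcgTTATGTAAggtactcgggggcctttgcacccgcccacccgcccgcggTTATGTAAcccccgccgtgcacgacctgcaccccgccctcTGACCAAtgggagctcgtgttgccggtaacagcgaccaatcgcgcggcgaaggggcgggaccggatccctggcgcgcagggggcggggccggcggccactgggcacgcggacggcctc
Cry1: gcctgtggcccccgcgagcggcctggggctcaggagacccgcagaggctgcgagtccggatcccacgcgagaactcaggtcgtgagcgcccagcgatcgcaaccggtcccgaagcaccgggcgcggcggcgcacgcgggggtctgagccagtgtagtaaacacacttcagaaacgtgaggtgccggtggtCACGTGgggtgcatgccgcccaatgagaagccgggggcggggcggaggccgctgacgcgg
Tef start 1: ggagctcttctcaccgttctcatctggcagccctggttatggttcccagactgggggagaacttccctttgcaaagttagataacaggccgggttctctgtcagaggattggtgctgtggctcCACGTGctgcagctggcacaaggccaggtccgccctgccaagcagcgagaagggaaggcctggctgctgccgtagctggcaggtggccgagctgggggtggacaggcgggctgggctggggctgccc
Tef start 2: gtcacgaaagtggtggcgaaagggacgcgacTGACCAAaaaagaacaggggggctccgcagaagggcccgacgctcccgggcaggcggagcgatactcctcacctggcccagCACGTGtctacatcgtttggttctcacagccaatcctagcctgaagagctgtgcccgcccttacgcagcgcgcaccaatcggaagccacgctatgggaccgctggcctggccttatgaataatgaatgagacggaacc
The E-box was in the windows of 3 of 9 clock genes and of 6.86% of 27025 genes, the D-box in 1 of 9 and 2.44%, and the ROR core in 3 of 9 and 10.5%. The cAMP response element TGACGTCA was in 0 of 9 and in 1.77% of genes. A gene counted when any of its windows held the motif, and Arntl, Clock, Per1 and Tef had more than 1 window. Of 32851 single windows, 6.02% held the E-box, 2.06% the D-box, 9.19% the ROR core and 1.55% the cAMP response element. These are matches of letters in one window per start and were not tested for function.

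The values are read counts divided by 1 size factor per mouse, called normalized counts here. Total reads here are the reads counted to genes, summed per mouse from the deposited values, and not all reads sequenced. They ranged from 8509094 to 15285577 per mouse, with group medians between 9523976 (saline) and 12905996.5 (10 weeks of recovery). A gene was called changed when its fold exceeded 1.5 and its Benjamini-Hochberg adjusted p from limma was below 0.05; log2 fold changes (log2FC) are on the log2(normalized count + 1) scale and are followed by their standard error. Saline mouse 1 and mouse 2 of the 2 weeks bleomycin group had the lowest median correlations with their own groups (0.9421 and 0.9378), so results on clock genes, and on the lists set beside them, are also given without them (42 mice) where a call changed. Markers of the labelled tissue were present: 6 of 6 keratinocyte genes and 6 of 6 fibroblast genes were above 0 in every mouse. Because whole skin was sequenced, fewer cells of a type and less RNA per cell cannot be told apart.

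In bleomycin-injected skin the clock genes fell into opposite arms. After 4 weeks Arntl, Npas2 and Cry1 were lower than in saline, Nr1d1, Per1, Per2, Per3, Dbp and Tef were higher, and Clock was not called. This is 9 of 10 genes called (3 lower, 6 higher), where 17.9% of all genes tested were called (7.37% lower, 10.5% higher). At 2 weeks 7 of 10 were called (2 lower, 5 higher), against 16.7% of all genes (7.43% lower, 9.30% higher). The median log2FC of the 10 genes was 0.54 at 2 weeks and 1.26 at 4 weeks, beside medians of 0.0025 and -0.00065 over all genes. In both recovery groups 0 of 10 were called against saline.

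**Figure D1:**
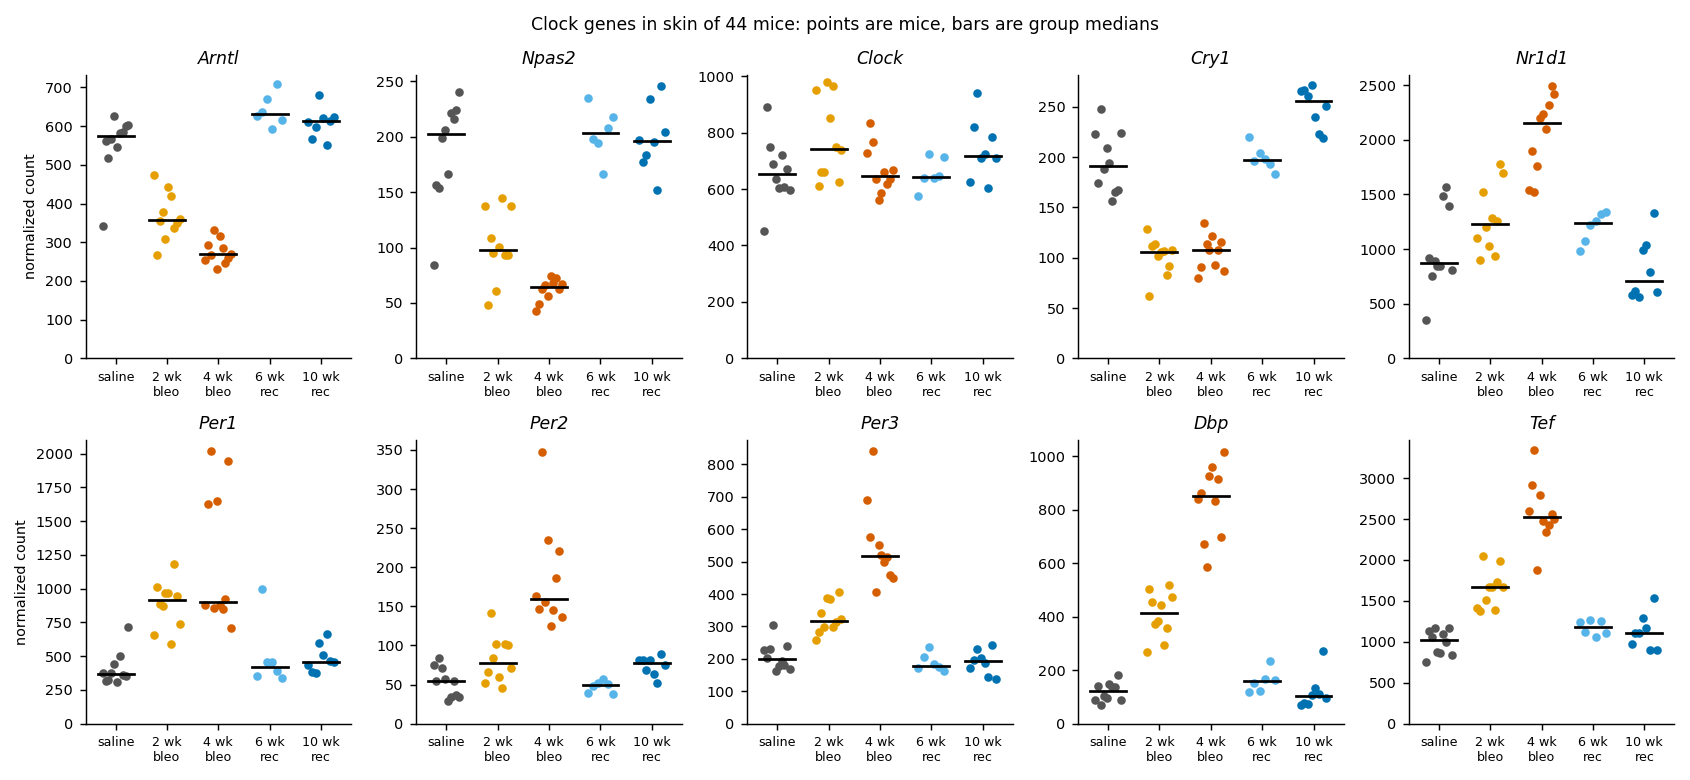
Normalized count (vertical axis, starting at 0) of each of the 10 clock genes in the saline group, after 2 and 4 weeks of bleomycin (bleo) and after 6 and 10 weeks of recovery (rec). Each point is 1 mouse and bars are group medians; Dbp ran from 71.1 to 182 in saline and from 584 to 1014 after 4 weeks of bleomycin, whereas Clock overlapped in all groups.

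Among the activators, Arntl (chr7:113207465-113314126, plus strand, in GRCm38) is the one that the loop cannot run without. Its normalized count was 341 to 626 (median 575) in saline, 267 to 474 (median 356) after 2 weeks and 231 to 331 (median 268) after 4 weeks of bleomycin. Every mouse of the 4 weeks group lay below every saline mouse, a separation shown by 2.21% of all genes in that direction. The log2FC was -0.996 ± 0.09 at 4 weeks (adjusted p = 7.47e-13) and -0.58 ± 0.09 at 2 weeks (adjusted p = 4.29e-07), the latter with a fold a little under the 1.5 threshold and therefore not called. Without saline mouse 1, which at 341 was the lowest saline mouse by far, the 2 weeks value was -0.66 and was called. After 6 weeks of recovery Arntl was 593 to 709 (median 631) and after 10 weeks 551 to 680 (median 612), ranges that overlap saline.

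Npas2 (chr1:39193731-39363236, plus strand), the paralogue of Clock that also pairs with BMAL1, followed with a larger difference. It ran from 84.7 to 240 (median 202) in saline, from 48.1 to 145 (median 98.1) at 2 weeks and from 43.1 to 74.2 (median 64.4) at 4 weeks. It fell at 2 weeks (log2FC -0.88 ± 0.16, adjusted p = 1.44e-05) and at 4 weeks (log2FC -1.54 ± 0.16, adjusted p = 9.98e-11), when the groups no longer overlapped. Medians in recovery were 203 and 196.

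Clock itself (chr5:76209868-76304792, minus strand) had group medians between 644 and 743, and its groups overlapped in every comparison. Its log2FC at 4 weeks was 0.03 with a 95% interval of -0.16 to 0.21, and the test over all 5 groups gave an adjusted p of 0.126, so it was the 1 gene of the 10 not called there. The other 9 were called, as were 52.4% of all genes tested.

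Of the repressors, Cry1 (chr10:85131700-85185064, minus strand) went with the activators. It was 156 to 248 (median 191) in saline, 62.4 to 129 (median 106) at 2 weeks and 79.8 to 135 (median 108) at 4 weeks, and neither bleomycin group overlapped saline; at 2 weeks 1.33% of all genes were separated in that direction. The log2FC was -0.95 ± 0.10 at 2 weeks (adjusted p = 1.5e-10) and -0.89 ± 0.10 at 4 weeks (adjusted p = 8.18e-10). Its levels at 2 and 4 weeks were close: 4 weeks against 2 weeks gave a log2FC of 0.06 with a 95% interval of -0.13 to 0.25. After 10 weeks of recovery it was 219 to 272 (median 256), with a log2FC of 0.37 against saline (adjusted p = 0.0278) that did not reach the fold threshold.

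Nr1d1 (chr11:98767932-98775333, minus strand) varied widely in saline, from 347 to 1565 (median 871). Saline mice 7, 8 and 9 had 1483, 1565 and 1392, while mouse 1 had 347. It was 904 to 1774 (median 1233) at 2 weeks and 1523 to 2490 (median 2150) at 4 weeks, so that the 4 weeks group overlapped saline only through the highest saline mouse. It rose at 4 weeks (log2FC 1.14 ± 0.18, adjusted p = 1.76e-06), and at 2 weeks the value was 0.44 ± 0.18 (adjusted p = 0.0511). Nr1d1 shares 263 exon bases with Thra on the opposite strand, a thyroid hormone receptor gene, whose log2FC at 4 weeks was -0.05 (adjusted p = 0.522).

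The 3 Period genes were higher under bleomycin to different degrees. Per3 (chr4:151003652-151044665, minus strand) went from 163 to 303 (median 198) in saline to 259 to 407 (median 318) at 2 weeks and 407 to 841 (median 518) at 4 weeks, with log2FC 0.67 ± 0.12 (adjusted p = 1.04e-05) and 1.39 ± 0.12 (adjusted p = 3.2e-13). Per2 (chr1:91415982-91459324, minus strand), the least abundant gene of the 10 in saline per kilobase of exon (mean 9.04), had medians of 54.9, 77.9 and 160 in the same order. Its log2FC was 0.64 ± 0.19 at 2 weeks (adjusted p = 0.00648) and 1.81 ± 0.19 at 4 weeks (adjusted p = 1.79e-10), and at 4 weeks no mouse overlapped saline.

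Per1 (chr11:69095217-69109960, plus strand) had a wide spread at 4 weeks. It was 309 to 713 (median 367) in saline, 592 to 1185 (median 915) at 2 weeks and 707 to 2017 (median 900) at 4 weeks. It rose at 2 weeks (log2FC 1.14 ± 0.19, adjusted p = 3.35e-06) and at 4 weeks (log2FC 1.54 ± 0.19, adjusted p = 6.39e-09). Within the 4 weeks group 4 mice had 1629 to 2017 and the other 6 had 707 to 922, with no mouse between.

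Dbp (chr7:45705088-45710203, plus strand) and Tef (chr15:81802421-81826863, plus strand), the outputs of the loop, lay above the saline range in every bleomycin mouse. Dbp went from 71.1 to 182 (median 121) in saline to 267 to 520 (median 414) at 2 weeks and 584 to 1014 (median 852) at 4 weeks, and these 3 ranges did not overlap. Separation in this direction was seen for 3.44% of all genes at 2 weeks, 4.31% at 4 weeks and 0.106% between 2 and 4 weeks. The log2FC was 1.79 ± 0.18 (3.45-fold, adjusted p = 3.86e-11) at 2 weeks and 2.82 ± 0.18 (7.08-fold, adjusted p = 4.74e-17) at 4 weeks. Tef was 756 to 1168 (median 1027) in saline, 1372 to 2051 (median 1666) at 2 weeks and 1879 to 3338 (median 2526) at 4 weeks. Its log2FC was 0.73 ± 0.09 (adjusted p = 3.67e-08) and 1.38 ± 0.09 (adjusted p = 8.62e-16). Dbp shares 539 exon bases with Sphk2 on the opposite strand, and Sphk2, a sphingosine kinase gene, had a log2FC of -0.32 at 4 weeks (adjusted p = 0.000396), opposite in sign to Dbp. Tef shares 193 exon bases with the antisense gene Gm17597, whose group medians were 0.907 to 5.32, and Arntl shares 33 with the antisense gene Gm45355. Whether strand was used in counting is not given in the sources used here.

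**Figure D2:**
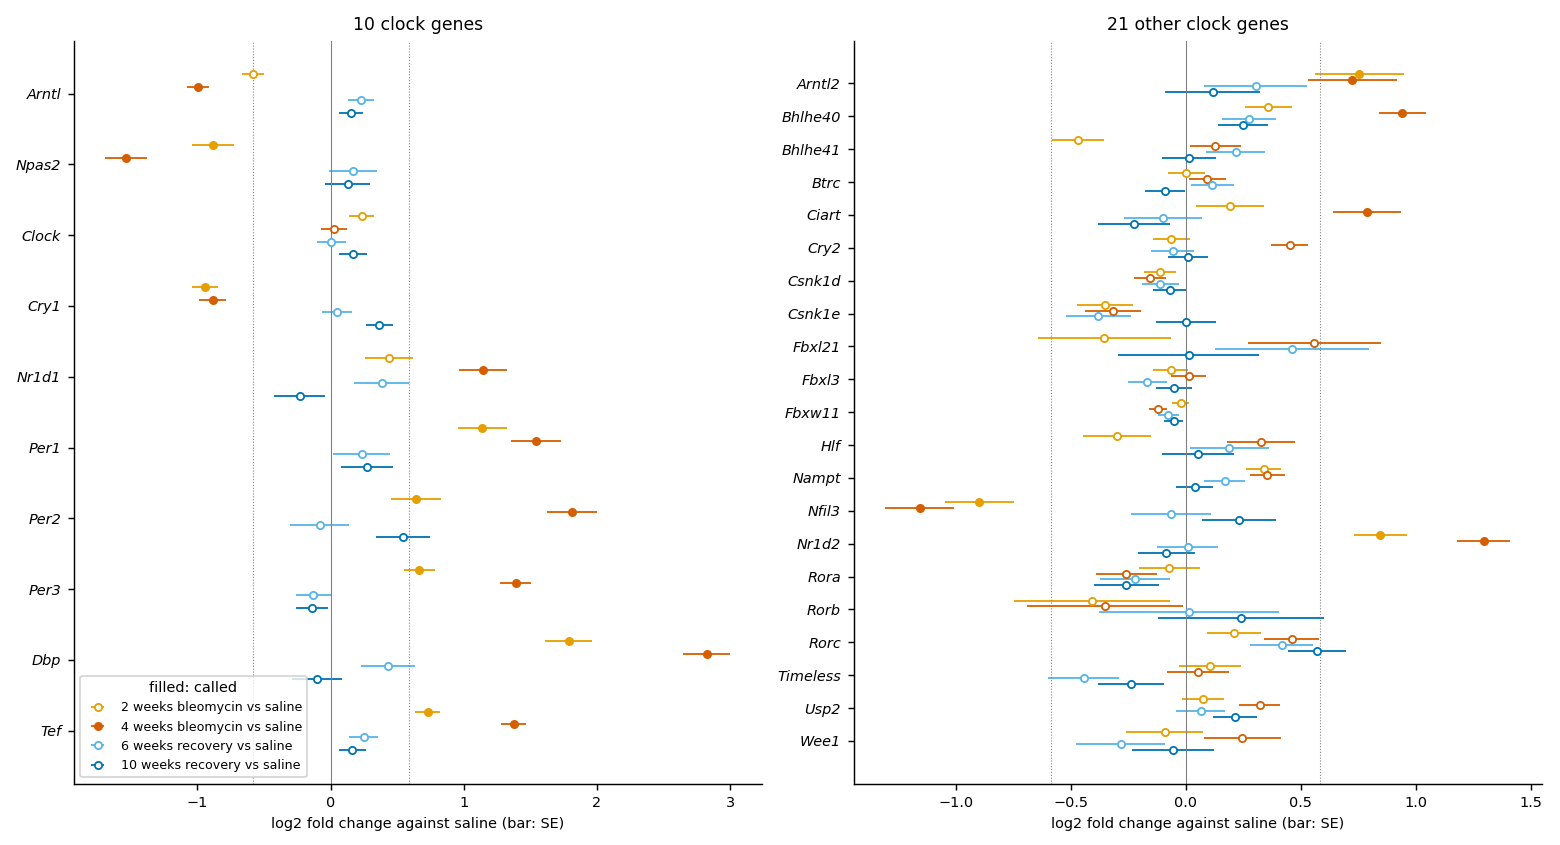
Log2 fold change against saline (horizontal axis; bars are SE) in the 4 treated or recovered groups, for the 10 clock genes on the left and 21 other clock genes on the right. Filled points were called, dotted lines mark a 1.5-fold change, and the points of both recovery groups are all open.

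The 2 weeks and 4 weeks groups were also compared with each other, since both were injected until harvest. Here 6 of 10 clock genes were called, against 2.35% of all genes: Npas2 was lower at 4 weeks (log2FC -0.65 ± 0.16), and Per2 (1.17 ± 0.19), Per3 (0.72 ± 0.12), Nr1d1 (0.70 ± 0.18), Dbp (1.04 ± 0.18) and Tef (0.65 ± 0.09) were higher. Arntl had -0.41 ± 0.09 (adjusted p = 0.00266), below the fold threshold, and Per1 0.40 ± 0.19 (adjusted p = 0.204). Only Dbp did not overlap between these groups.

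After injections stopped the arms moved back. Between 4 weeks of bleomycin and 6 weeks of recovery 9 of 10 genes were called, against 11.9% of all genes. Arntl (log2FC 1.22 ± 0.10), Npas2 (1.70 ± 0.18) and Cry1 (0.93 ± 0.11) were higher in recovery. Dbp (-2.39 ± 0.20), Per2 (-1.90 ± 0.22), Per3 (-1.52 ± 0.13), Per1 (-1.31 ± 0.21), Tef (-1.13 ± 0.11) and Nr1d1 (-0.76 ± 0.21) were lower. Against saline, by contrast, limma called 0 of 10 in each recovery group, where 5.04% of all genes were called at 6 weeks and 3.05% at 10 weeks; 3 and 2 of the 10 had an unadjusted p below 0.05. On recovered reads edgeR and DESeq2 also called 0 at both times. Between the recovery groups 0 of 10 were called, against 0.0880% of all genes, with 4 at an unadjusted p below 0.05 and 0 called by edgeR and by DESeq2. Further comparisons were added after the data were seen: against the 2 weeks bleomycin group limma called 7 of the 10 genes in each recovery group, and against the 4 weeks group it called 9 at 10 weeks of recovery, beside 15.3%, 16.4% and 15.8% of all genes. The absence of calls does not show equality: the 95% interval for Per2 at 10 weeks against saline ran from 0.15 to 0.94.

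The log2 ratio of Dbp to Arntl gathers both arms in 1 value per mouse. It ranged from -2.85 to -1.72 in saline, from -0.82 to 0.91 at 2 weeks and from 0.82 to 2.00 at 4 weeks of bleomycin, and from -2.46 to -1.58 and from -3.09 to -1.17 in the 6 and 10 weeks recovery groups. Saline and both bleomycin groups each spanned 1.13 to 1.74 log2 units, and saline did not overlap either of them. The highest 2 weeks mouse (0.91) lay just above the lowest 4 weeks mouse (0.82).

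**Figure D3:**
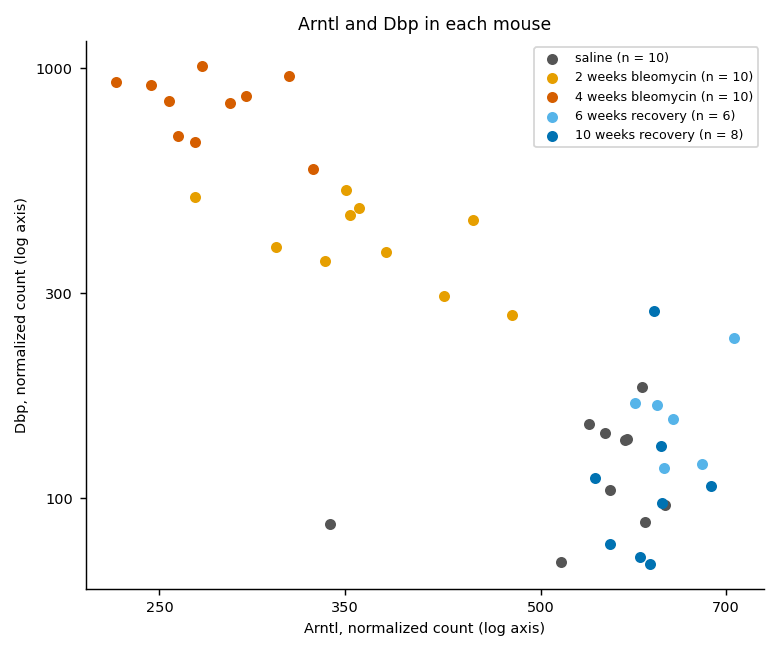
Arntl (horizontal) against Dbp (vertical), both as normalized counts on log axes, with 1 point per mouse and 1 colour per group. The 4 weeks bleomycin mice lie at Arntl 231 to 331 and Dbp 584 to 1014, apart from saline and recovery mice.

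Genes that oppose each other between groups need not do so between mice of 1 group. After taking off group means, no relation of Arntl and Dbp passed the test over 44 mice (Pearson's r = -0.02, adjusted p = 0.911 over 6 relations; Spearman's rho = -0.02, adjusted p = 0.883; two-sided permutation tests; r = -0.08 without the 2 mice farthest in Arntl). Inside single groups their r ran from -0.59 at 2 weeks of bleomycin (adjusted p = 0.353 over 30 relations, permutation test) to 0.38 after 6 weeks of recovery (adjusted p = 0.808, permutation test), and none passed. Arntl and Npas2 were related (r = 0.78, adjusted p = 6e-05; rho = 0.63, adjusted p = 6e-05; permutation tests, with 1e-05 the smallest unadjusted p they can give), and r was 0.59 without the 2 farthest mice and 0.57 in the 42 mice. Inside single groups, with p adjusted over 30 relations, r for Arntl and Npas2 was 0.94 in saline (adjusted p = 0.0135, permutation test), 0.82 at 2 weeks (adjusted p = 0.0526) and 0.28 at 4 weeks (adjusted p = 0.808). Arntl and Nr1d1 gave r = 0.41 (adjusted p = 0.0546), which was 0.00 in the 42 mice and so rested on the mice left out. Dbp and Per3 gave r = 0.13 (adjusted p = 0.652), and Dbp and total reads r = -0.03 (adjusted p = 0.911).

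Of all 45 pairs among the 10 genes, 5 had an inside-group r above 0.5 and 1 below -0.5, given without a test since the points share a normalization. They were Arntl with Npas2 (0.78), Per3 with Tef (0.70), Nr1d1 with Dbp (0.66), Npas2 with Nr1d1 (0.56) and Nr1d1 with Tef (0.53), and Cry1 with Dbp (-0.56). In the 42 mice Npas2 with Nr1d1 came to 0.33 and Nr1d1 with Tef to 0.43, and the other 4 pairs stayed beyond 0.5. Among all other genes tested, those most like Dbp over the 44 mice were Sdr39u1 (r = 0.71), Bckdk (0.66), E130307A14Rik (0.65), Tcap (0.64), Macrod1 (0.64) and Vamp2 (0.63), with Spearman's rho of 0.55 to 0.76 and r of 0.62 to 0.70 in the 42 mice. Those most like Arntl were Rgmb (0.78), Card10 (0.77), Sun1 (0.73), Ahnak2 (0.73), Esyt3 (0.73) and Ahr (0.73). For these the rho was lower, 0.47 to 0.66, and in the 42 mice r was 0.57 for Rgmb and 0.28 to 0.46 for the other 5, so their place rested in large part on the mice left out.

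**Figure D4:**
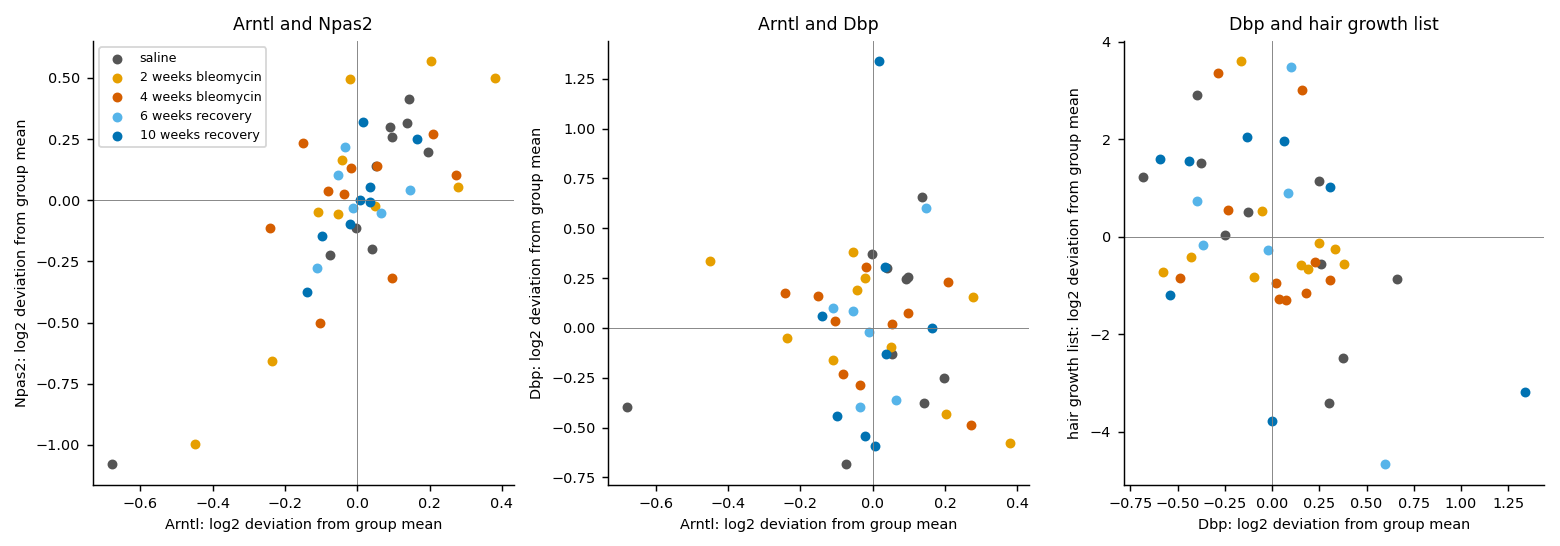
Log2 deviation of each of 44 mice from its group mean, for Arntl and Npas2 (left), Arntl and Dbp (middle), and Dbp and the mean of 9 hair growth genes (right), coloured by group. The left panel slopes up (r = 0.78), the middle one shows no slope (r = -0.02) and the right one slopes down (r = -0.45).

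Across mice of a group, Nr1d1, Per1 and Dbp were more variable than most genes of like abundance. Their standard deviation inside groups was 0.42, 0.43 and 0.41 on the log2 scale, at the percentiles 95.2, 94.7 and 92.5 of genes with a similar level, against 49.6 for Arntl and 38.2 for Cry1. The median over all genes tested was 0.27.

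The rest of the clock machinery was taken as a list. Of 21 other clock genes 3 were called at 2 weeks (2 higher, 1 lower) and 5 at 4 weeks (4 higher, 1 lower), shares near the 16.7% and 17.9% of all genes and so no result about the list, and 0 in either recovery group against saline, where limma gave an unadjusted p below 0.05 for 4 and 3 of them and edgeR and DESeq2 also called 0. Nr1d2, the paralogue of Nr1d1, went from 397 to 700 (median 532) in saline to 900 to 1698 (median 1282) at 4 weeks (log2FC 1.30 ± 0.12, adjusted p = 2.52e-12). Nfil3, a repressor that competes for D-boxes with Dbp and Tef, was lower at both times (log2FC -0.90 ± 0.15 and -1.16 ± 0.15), with medians of 363 in saline and 173 at 4 weeks. Bhlhe40 (0.94 ± 0.10) and Ciart (0.79 ± 0.15), both repressors of BMAL1 and CLOCK, rose at 4 weeks, and Arntl2, a paralogue of Arntl, rose at 2 weeks (0.75 ± 0.19) and 4 weeks (0.72 ± 0.19), opposite to Arntl; in the 42 mice its 4 weeks value was 0.57, under the fold threshold. Between 4 and 2 weeks 3 of the 21 were called, against 2.35% of all genes. They were Ciart (0.60 ± 0.15), Hlf (0.63 ± 0.15) and Bhlhe41 (0.60 ± 0.11, and 0.57 and not called in the 42 mice), the last pair named after their values were seen.

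Genes of other programmes are given beside the clock genes, and some of them differed between the same groups. Of 8 glucocorticoid-induced genes 3 were called at 2 weeks (2 higher, 1 lower) and 3 at 4 weeks (all higher), against 16.7% and 17.9% of all genes. Tsc22d3, a glucocorticoid-induced leucine zipper gene, was at log2FC 0.88 ± 0.20 and 0.80 ± 0.20. Pdk4, a metabolic kinase gene, was higher at 2 weeks (1.77 ± 0.30) and at 10 weeks of recovery (1.20 ± 0.32). Mt2, a metallothionein gene, was lower at 2 weeks (-0.71 ± 0.20). Without saline mouse 1 alone Mt2 was at -0.51 and not called, and in the 42 mice it was at -0.65 and called. Zbtb16 (0.84 ± 0.32) and Klf9 (0.70 ± 0.25) were called higher at 4 weeks, and both calls rested on saline mouse 1. Without that mouse alone limma gave Zbtb16 0.64 (adjusted p = 0.094) and Klf9 0.51 (adjusted p = 0.0827), and in the 42 mice 1 of the 8 genes, Tsc22d3, was called at 4 weeks. The summed level of the list was 6341 to 14000 (median 7366) in saline, 7827 to 11960 (median 9294) at 2 weeks and 6078 to 16140 (median 9079) at 4 weeks, and no gene of it was at 0. Of 7 temperature-responsive genes Rbm3, a cold-inducible RNA-binding protein gene, was higher (0.61 ± 0.12) and the heat shock gene Hsph1 lower (-0.86 ± 0.11) at 4 weeks, and 0 were called at 2 weeks, with 4 at an unadjusted p below 0.05 by limma and 0 called by edgeR and DESeq2. The part of either list in the clock result was not tested.

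Per1 and Tsc22d3 were highest in the same mice in some groups and not in others, a description added after the values were seen. In the 4 weeks group the 4 mice with 1629 to 2017 of Per1 (mice 2, 3, 5 and 9) were also the 4 with the most Tsc22d3, at 1857, 3881, 2186 and 1619, while the other 6 had 803 to 1211. The highest Per1 in saline (713, mouse 10) and after 6 weeks of recovery (1001, mouse 2) was in the mouse with the highest Tsc22d3 of its group (1340 and 1237). At 2 weeks, however, the highest Per1 was in mouse 8 and the highest Tsc22d3 in mouse 2, and after 10 weeks of recovery the highest Per1 was in mouse 6, whose Tsc22d3 was next to the lowest of the group. Over the 44 mice the inside-group r was 0.65 for Per1 with Tsc22d3 and 0.37 for Per2, and for Per1 with the other 7 genes of the list it was 0.12 to 0.46. In the 42 mice r was 0.66 for Per1 with Tsc22d3 and 0.49 for Per2. For Per1 with the other 7 genes it was then 0.17 to 0.59, highest for Klf9 (0.24 in the 44 mice). Per2 in the 4 weeks group was also highest in mice 3, 5 and 9 (347, 235 and 221), but mouse 2 had 146, below the group median of 160.

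**Figure D5:**
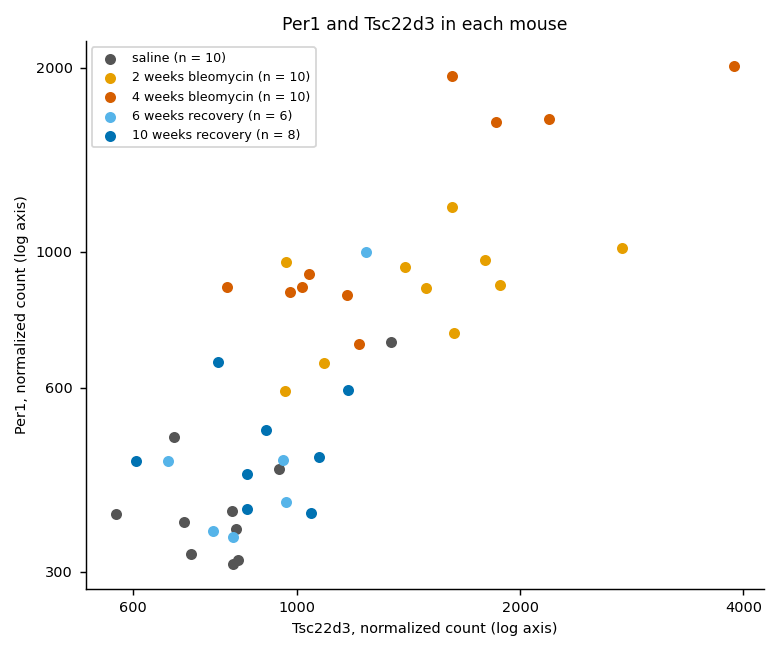
Tsc22d3 (horizontal) against Per1 (vertical), both as normalized counts on log axes, with 1 point per mouse coloured by group. The 4 mice at 1629 or more for Per1 are all from the 4 weeks bleomycin group and have Tsc22d3 values of 1619 to 3881.

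Immediate-early genes, which respond within minutes to stimulation and handling, were called higher for 3 of 11 at 2 weeks, 5 of 11 at 4 weeks and 4 of 11 after 10 weeks of recovery, against 9.30%, 10.5% and 2.05% of all genes called higher. Fos rose at 2 weeks (log2FC 1.16 ± 0.20), 4 weeks (1.09 ± 0.20) and 10 weeks of recovery (1.01 ± 0.21), and Fosb at 4 weeks (1.33 ± 0.48) and 10 weeks of recovery (2.08 ± 0.51). Fosl1 (1.00 ± 0.25), Nr4a1 (0.92 ± 0.19) and Atf3 (0.74 ± 0.18) rose at 4 weeks, and Dusp1 after 10 weeks of recovery (0.79 ± 0.15). These are not all the calls of the named genes at 2 weeks and after 10 weeks of recovery. Medians in saline and at 2 weeks were 123 and 260 for Atf3 and 501 and 724 for Dusp1. For Nr4a1 they were 253 and 354, and for Fosl1 21.7 and 38.1. After 10 weeks of recovery the median was 179 for Atf3, 378 for Nr4a1 and 22.3 for Fosl1. In the 42 mice 2 of 11 were called at 2 weeks and 5 of 11 after 10 weeks of recovery. Their part in the clock result was not tested.

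The hair cycle also differed between groups. All 9 tested genes of the growing (anagen) hair follicle were lower at 2 and at 4 weeks, and their summed normalized count was 2069 to 213000 in saline, 136 to 1933 at 2 weeks and 165 to 4964 at 4 weeks, against 215 to 99520 and 1425 to 161900 in the recovery groups. Krt25, Krt73, Krt34 and Shh were at 0 in at least 1 mouse at 2 weeks. After 6 weeks of recovery the median log2FC of the list against saline was -2.10 with 1 of 9 called (Shh); edgeR gave a median of -1.38 with 1 called, DESeq2 -1.39 with 2, and the 42 mice -1.72 with 0. Over the 44 mice with group means taken off, Dbp was higher in mice with less of the list (r = -0.45, adjusted p = 0.0175; rho = -0.40, adjusted p = 0.0326; permutation tests; r = -0.37 without the 2 mice farthest in Dbp), and in saline alone r was -0.69 (adjusted p = 0.173) and rho -0.87 (adjusted p = 0.0429, permutation test). In the 42 mice r was -0.43 (adjusted p = 0.0335, permutation test) and passed, whereas the rho had an adjusted p of 0.0702 (permutation test) and did not pass. No other single group passed: r was -0.13 at 2 weeks, -0.23 at 4 weeks, -0.54 after 6 weeks of recovery (0.61 without the 2 farthest mice) and -0.49 after 10 weeks (0.09 without them). In 10 weeks recovery mouse 7, which had the highest Dbp (272) and Nr1d1 (1329) of its group, the mean log2 level of the list was 6.77, next to the lowest of the group (6.17). Mouse 4, which had that lowest level, had a Dbp of 107, near the group median of 102. The part of the hair cycle in the clock result was not tested.

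Cell-type markers changed as well. Of all genes tested, 16.7% were called at 2 weeks, 17.9% at 4 weeks and 5.04% after 6 weeks of recovery. Macrophage genes were higher for 4 of 6 at both bleomycin times, with summed levels of 4203 to 11200 in saline, 7476 to 26600 at 2 weeks and 8345 to 20530 at 4 weeks. Schwann cell genes were higher for 4 of 4 at 4 weeks, 4 of 4 after 6 weeks of recovery and 3 of 4 after 10 weeks. Genes of dividing cells were lower for 4 of 4 at 4 weeks and after 6 weeks of recovery. Endothelial genes were higher for 3 of 5 after 6 weeks of recovery. In the 42 mice macrophage genes had 3 of 6 called at 2 weeks and Schwann cell genes 3 of 4 at 4 weeks, and without saline mouse 1 alone Cdk1, of the dividing cell list, lost its call after 6 weeks of recovery. At 2 weeks fibroblast genes were lower for 3 of 6, with all 6 at an unadjusted p below 0.05 by limma and a list median log2FC of -0.64, and adipocyte genes were lower for 2 of 5 and endothelial genes higher for 2 of 5. Of the other lists at 4 weeks, keratinocyte genes had 0 of 6 and T cell genes 0 of 5 called by limma (3 and 1 at an unadjusted p below 0.05; 0 called by edgeR and DESeq2), fibroblast genes 1 of 6 lower, adipocyte genes 3 of 5 lower, skeletal muscle genes 1 of 6 lower and endothelial genes 2 of 5 higher. In the 42 mice the 4 weeks counts were 2 of 6 lower for fibroblast and for skeletal muscle genes, and 1 endothelial gene, Tek, was called lower. None of the listed genes was at 0 in every mouse of a group. Their part in the clock result was not tested.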

How the data were processed

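Whole back skin of 44 mice was sequenced from poly(A) RNA (GenElute extraction, TruSeq stranded mRNA libraries, Illumina HiSeq). The authors aligned reads to mm10 with STAR 2.4.0 and normalized them with DESeq2 1.12.3, per the labels; the deposited values are a signal, counts per gene divided by 1 size factor per mouse. The counting program, its strand setting and its annotation are not given in the sources used here. Whole reads were recovered from the steps between low values (100% of values whole within 0.01 reads); 1 read was worth 0.73 to 1.3 normalized counts and 3 reads at most 3.90. Such limits cover counting error only.

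IDs were matched to symbols (98.9% of 43411 genes). Genes with a mean above 3 were tested in 1 limma fit (limma 3.58.1, R 4.3.3) of log2(normalized count + 1) over all 44 mice, with a moderated trend, and p-values were adjusted by Benjamini-Hochberg over 17037 genes. Relations between mice used 100000 permutations inside groups, or exact permutation tests for 6 and 8 mice (scipy 1.17.1 and numpy 2.4.6). Fits were tested on simulated data. edgeR 4.0.16 (quasi-likelihood) and DESeq2 1.42.0 on recovered reads, TMM and quantile scaling, other filters and pseudocounts, leaving out mice and a replicate block were alternatives. Each mouse is a separate sample; no pair of a group was alike within sampling noise (smallest chi-square per degree of freedom 5.06).

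The clock genes and all lists were chosen with earlier results of these data known. From each other list, genes called against saline in any of 4 comparisons were named, at most 6 a list by absolute log2FC; for likeness, the 6 genes with the highest r to Dbp and to Arntl. The 4 lists besides cell markers and 10 marker lists are described, and Tchh and Mki67 were not analysed here. 6 and 10 weeks of recovery against 2 weeks, and 10 weeks against 4 weeks of bleomycin, were compared after the data were seen.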

Additional observations from a re-analysis of the deposited data

Results flagged for a closer look

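Of 50 combinations of clock gene and group, 5 had 1 mouse far from the rest by Dixon's test on the log2 scale, where chance gives about 1 in 20 (2.5 of 50). Saline mouse 1 stood apart as the lowest of its group for 3 genes, Arntl (341), Npas2 (84.7) and Nr1d1 (347). The others were 6 weeks recovery mouse 2 for Per1 (1001) and 10 weeks recovery mouse 7 for Dbp (272).

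The 2 and 4 weeks bleomycin groups differed, by the direct limma comparison, for 6 of the 10 genes, against 2.35% of all genes. Npas2 was lower at 4 weeks (log2 fold change -0.65, adjusted p = 0.01). Per2 (1.17, adjusted p = 0.00025), Per3 (0.72, adjusted p = 0.000218) and Nr1d1 (0.70, adjusted p = 0.0145) were higher. Dbp (1.04, adjusted p = 0.000373) and Tef (0.65, adjusted p = 5.3e-05) were higher too. Neither hour of harvest nor age can be told apart from group here.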

How the results depend on the processing

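All 31 called fold changes of clock genes kept their direction and call in all 13 alternatives, and moved by at most 0.18 on the log2 scale. The count of clock genes called changed by over 1.5 times in 1 case, 10 weeks of recovery against saline, where dropping the fold threshold called 1 gene, Cry1. Arntl at 2 weeks joined the called genes with no fold threshold, with pseudocount 0.1, in the 42 mice and without saline mouse 1 (log2 fold changes -0.58 to -0.66), and Arntl between 4 and 2 weeks with no fold threshold. The replicate numbers do not pair mice (median correlation of deviations -0.0022 for same-numbered and -0.0042 for other pairs); with a replicate block the counts of clock genes called were 7, 9, 0 and 0 against saline, as without it. The median log2 fold change of all genes stayed within 0.024 of 0 under every setting and was at most 0.0034 from 0 in the reported fit. 14 refits changed sign, all of uncalled values near 0. For Clock these were -0.0326 at 4 weeks and -0.0536 at 6 weeks of recovery in the 42 mice, and at 6 weeks of recovery -0.01 with the replicate block, -0.004 with edgeR and -0.0112 with DESeq2. Leaving out either of the 2 mice alone gave Clock -0.0326 to 0.0258 at 4 weeks and -0.0536 to 0.0048 at 6 weeks of recovery, and Cry1 -0.0151 to 0.0588 between 4 and 2 weeks, where the 42 mice gave -0.0151. For 10 against 6 weeks of recovery, Per1 had -0.0598 (edgeR) and -0.0454 (DESeq2), and Per3 0.0206 (replicate block) and 0.0031 (DESeq2). Cry1 had -0.0009 at 6 weeks of recovery (replicate block). The cause of these changes was not tested. The relation of Dbp to the hair list had an adjusted p of 0.0335 for r and 0.0702 for rho in the 42 mice (permutation tests).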
